A study of Oryctolagus cuniculus with 12 samples.

Results

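CXC chemokines and their receptors were followed in rabbit conjunctiva after glaucoma filtration surgery. The 9 genes were CXCL8, PPBP, CXCL12, CXCL13, CXCL14 and CXCL16 among the ligands and CXCR1, CXCR2 and CXCR4 among the receptors, and each was found by its name in the table of genes. The table held a row for 8 of the 9 names among its 20566 rows, and CXCL14 is not analysed here. Of these 8 rows, 7 passed the filter on low counts, as did 14835 rows in all. CXCL13 had too few counts to be tested.

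CXC chemokines are small secreted proteins that guide leukocytes along gradients. Those with a Glu-Leu-Arg motif, such as CXCL8 (interleukin-8), the GRO proteins and the product of PPBP, bind CXCR1 or CXCR2 and draw neutrophils into injured tissue. CXCL12 binds CXCR4, which is carried by most leukocytes, and is cleared by the atypical receptor ACKR3. CXCL16 binds CXCR6 and is made as a membrane-bound protein that can be shed. CXCL13 binds CXCR5 and guides B cells in lymphoid tissue.

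The animals were female Japanese white rabbits. Their right eyes underwent trabeculectomy, an operation that opens a drainage path under a scleral flap and raises a fluid-filled conjunctival bleb. Mitomycin C, which slows scarring, was applied to every operated eye, and per the study's methods the operation ended with a corticosteroid injection and an antibiotic ointment, so that the surgery and these drugs cannot be told apart. Bleb conjunctiva was taken 3 hours (TL3h), 3 days (TL3d) or 14 days (TL14d) after surgery, with 3 libraries per group. The control group held 3 libraries of conjunctiva from left eyes, which were not operated on and belonged to operated animals. The age of these animals, the time at which each control was taken and the operated eye to which it belongs are not given in the labels. The study describes the values of its operated groups as averages over eyes, and only right eyes were operated on, so that these eyes were of separate animals. The same is not stated of the control libraries, and p-values measure the spread between these libraries only.

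The libraries held 27111276 to 38591374 counts. Levels are CPM, the usual library-size unit of counts, scaled by the TMM method, and comparisons used the quasi-likelihood test of edgeR with p-values adjusted by the Benjamini-Hochberg method over all genes tested. In these bulk samples, fewer cells of a type and less RNA per cell cannot be told apart. Epithelial, fibroblast, endothelial and leukocyte markers were all present. The libraries did not all resemble their group. TL14d replicate 1 correlated better with the control libraries (mean correlation 0.959) than with the other TL14d libraries (0.883). Control replicate 3 held 110 CPM of summed neutrophil markers, against 10.9 and 22.6 CPM in the other control libraries. Both libraries were kept, and values without one or both of them are given where results of the CXC genes change.

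Of the 7 CXC genes tested, 5 passed at TL3h against control, and all of them rose (CXCL8, PPBP, CXCR1, CXCR2 and CXCR4). Among all genes tested, 45.4% passed at this time and 23.2% rose. In CPM the 3 TL3h libraries lay above the 3 control libraries in each of the 7 genes, which was so for 28.9% of all genes. In the deposited FPKM, which are not TMM-scaled, this held for 5 of the 7 (not CXCL12 and CXCL16) and for 17.2% of all genes. The median log2 fold change was 5.68 for the 7 genes and 0.02 for all genes tested. At TL3d, 2 of the 7 genes passed and were higher than control (PPBP and CXCR4), beside 17.6% of all genes that passed and 10.6% that were higher. DESeq2 and limma each called 5 at TL3d, adding CXCL8, CXCR1 and CXCR2. In 6 of the 7 the groups did not overlap in CPM or in FPKM, with TL3d above control, as in 23.8% of all genes in CPM. At TL14d none of the 7 passed, and 0.00% of all genes did. At that time 2 of the 7 had an unadjusted p under 0.05 in edgeR, as did 10.4% of all genes, DESeq2 called 2 and limma called 0.

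**Figure D1:**
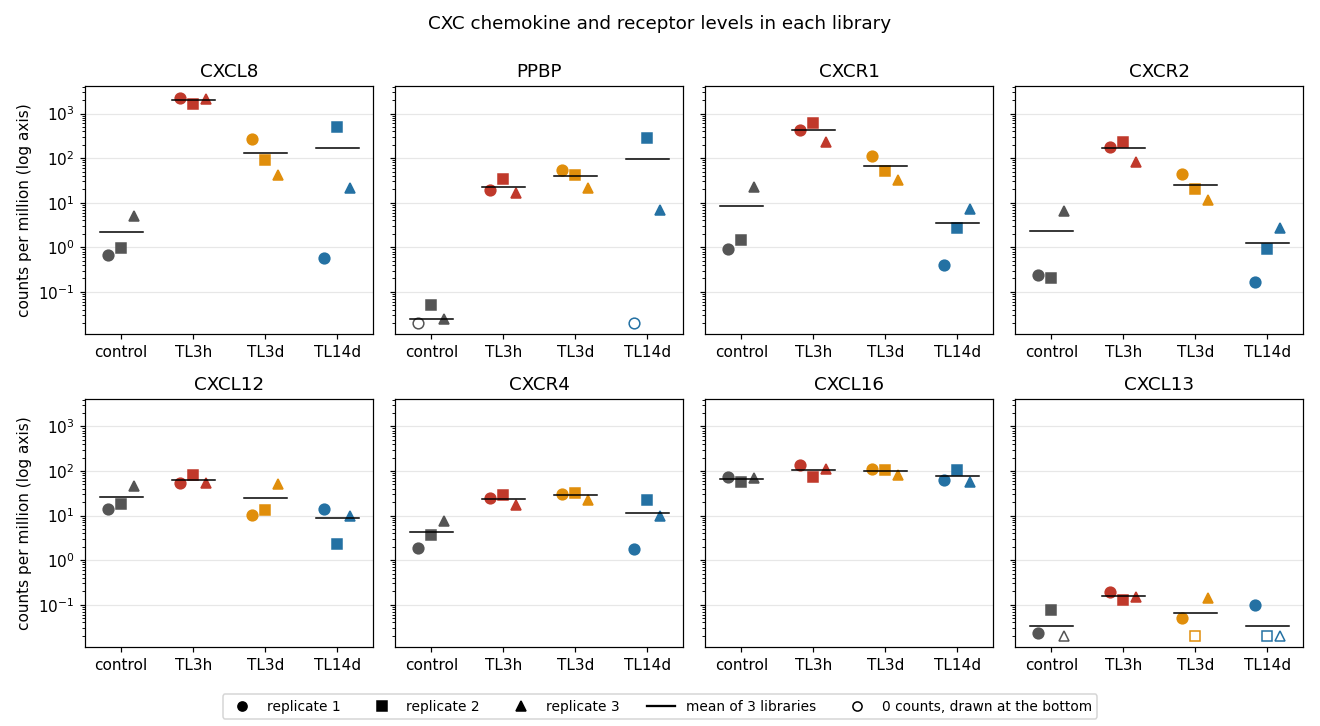
Level of the 8 CXC genes with a row in each of the 12 libraries, in CPM on a log axis, with marker shape for the replicate and a line for the arithmetic mean of 3 libraries. CXCL8 in the 3 TL3h libraries sits between 1634 and 2277 CPM, above all other libraries, and the TL14d libraries are spread most widely for CXCL8 and PPBP.

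CXCL8 is the main neutrophil attractant of the family in rabbits and humans, and mice lack it. Its level in the control libraries was 0.665, 0.951 and 5.04 CPM. In the TL3h libraries it was 2277, 1634 and 2075 CPM. No control library came near this range, and the log2 fold change was 9.81 with a standard error of 2.25 (adjusted p = 0.00544). Without control replicate 3 it was 11.21 (adjusted p = 0.0107). At TL3h, CXCL8 took 0.126% to 0.177% of all counts of a library.

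CXCL8 at TL3d was 267, 92.1 and 40.9 CPM. These values lay above every control library and below every TL3h library. The log2 fold change against control was 5.91 ± 1.91 (SE), with an adjusted p of 0.0572, which missed the threshold. Without TL14d replicate 1 the adjusted p was 0.0143, and without TL14d replicate 2 it was 0.0216. Without control replicate 3 the log2 fold change was 7.35 (adjusted p = 0.0698), and without TL3d replicate 1 it was 4.91 (adjusted p = 0.141). The TL14d libraries enter the test through the shared estimate of the spread. The difference of TL3d from TL3h was -3.90 ± 1.72 on the log2 scale (adjusted p = 0.0997), which also fell to 0.0297 and 0.0369 when TL14d replicate 1 or 2 was left out.

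The TL14d libraries held 0.572, 494 and 21.7 CPM of CXCL8. One was at the control level, one was above every TL3d library, and one lay between control and TL3d, so that the group overlapped both control and TL3d. The fitted difference from control was 6.28 on the log2 scale (adjusted p = 0.364). Without TL14d replicate 1 it was 6.86 (adjusted p = 0.0339), and without TL14d replicate 2, the library with the most CXCL8, it was 2.33 (adjusted p = 0.978).

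PPBP encodes the precursor of platelet basic protein, which is stored in platelet granules and trimmed to a neutrophil-attracting form. The control libraries held 0, 2 and 1 counts of it. The TL3h libraries held 489, 823 and 442 counts, or 18.8, 34.2 and 16.2 CPM. The pooled ratio of TL3h to control was 921, with a 95% interval of 315 to 4469 that covers counting error only (adjusted p = 0.0133 across libraries). At TL3d the level was 55.1, 41.6 and 21.3 CPM, a ratio to control of 1627 with an interval of 556 to 7892 (adjusted p = 0.0286). The 3 TL3d values overlapped the 3 TL3h values, and the difference between these times was 0.77 ± 1.57 on the log2 scale (adjusted p = 0.727).

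Both PPBP calls depended on the libraries used. Without control replicate 1 the adjusted p was 0.0523 at TL3h and 0.0979 at TL3d. At TL3d it was 0.0918 without control replicate 2, 0.0682 without control replicate 3, 0.0709 without TL3d replicate 1 and 0.0714 without TL3d replicate 2. The TL14d libraries were the most uneven, with 0, 287 and 6.999 CPM. TL14d replicate 2 held the highest PPBP level of all 12 libraries, and TL14d replicate 1 held 0 counts, which allows up to 3 counts or 0.101 CPM. The adjusted p against control was 0.346 with all libraries, 0.0104 without TL14d replicate 1 and 0.978 without TL14d replicate 2.

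The proportion of the PPBP to the CXCL8 count differed by time. PPBP counts were 0.00780 to 0.0209 of those of CXCL8 at TL3h and 0.206 to 0.522 at TL3d, with no overlap. In TL14d replicates 2 and 3 the proportion was 0.580 and 0.322. These ratios are within a library and are given without a test.

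Platelet markers were read beside PPBP. Of 12 listed markers 9 had a row and 4 were tested. At TL3h, GP5, a subunit of the platelet von Willebrand factor receptor, rose by 3.69 on the log2 scale (adjusted p = 0.00136), while P2RY12, a platelet ADP receptor that microglia and other macrophages also carry, fell by 2.82 (adjusted p = 0.0167, or 0.0579 without control replicate 3 and 0.0517 without TL3h replicate 1). These 2 of 4 stand beside 45.4% of all genes that passed at TL3h, and none of the 4 passed at TL3d, beside 17.6%. P2RY12 had fractional counts in 100% of libraries, and its value is uncertain. GP1BA and GP9, which define platelets, held 2 counts or fewer in each of the 12 libraries. The summed level of the 9 markers was 14.1 to 34.4 CPM in control, 45.4 to 93.7 at TL3h, 18.4 to 81.6 at TL3d and 15.7 to 318 at TL14d. In TL14d replicate 2, the library with the most PPBP, 311 CPM of this sum came from ITGB3, an integrin subunit of many cell types. The part of platelets in the PPBP result was not tested.

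CXCL8 and PPBP lie in a block of 7 CXC ligand rows on the minus strand of chromosome 15 (OryCun2.0). The block spans 253015 bases with no other row in it. In map order it holds LOC100354804 (permeability factor 2), GRO-A, GRO-B, LOC100008921 (platelet microbicidal protein 1), PPBP (76286735 to 76287577), LOC100008716 (alveolar macrophage chemotactic factor-like) and CXCL8 (76368959 to 76371691). The 5 rows beside PPBP and CXCL8 were singled out after their values were seen. GRO-A, GRO-B and LOC100354804 had fractional counts in 100%, 66.7% and 91.7% of libraries, against 16.7% for CXCL8 and 0% for PPBP. Reads of close copies may have been split among these rows, and their separate values are uncertain.

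All 7 rows of the block rose at TL3h, beside 23.2% of all genes. GRO-A went from 43.2 ± 16.5 CPM (SD, n = 3) in control to 495 ± 116 CPM at TL3h, a log2 fold change of 3.52 (adjusted p = 0.000126). GRO-B went from 68.5 ± 22.6 to 877 ± 212 CPM, a log2 fold change of 3.68 (adjusted p = 0.000833). Their control levels were well above those of CXCL8 and PPBP. LOC100354804 rose by 2.17 (adjusted p = 0.00225) and LOC100008921 by 1.73 (adjusted p = 0.0174), the latter from 0.764 ± 0.106 to 2.55 ± 1.07 CPM. LOC100008716 went from 11.6 ± 8.75 to 579 ± 37.3 CPM (log2 fold change 5.65, adjusted p = 0.0164).

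GRO-A, GRO-B and LOC100354804 fell between TL3h and TL3d, by 2.72, 2.57 and 1.86 on the log2 scale (adjusted p = 0.000507, 0.00583 and 0.00621). Their TL3d libraries overlapped the control libraries in CPM, which in FPKM did not hold for GRO-B. PPBP, LOC100008921 and LOC100008716 held TL3d libraries that were all above control and overlapped TL3h, and the fitted differences of TL3d from TL3h were 0.77, 0.18 and -0.69 (adjusted p = 0.727, 0.801 and 0.711). Of these, LOC100008921 was higher than control at TL3d (log2 fold change 1.91, adjusted p = 0.0309), a call lost without control replicate 3 and TL14d replicate 1 (adjusted p = 0.0508) and without some single libraries (up to 0.110). Its call at TL3h and that of LOC100008716 were also lost without some single libraries, at adjusted p-values up to 0.0811 and 0.0612. LOC100008716 missed the threshold at TL3d with a log2 fold change of 4.96 (adjusted p = 0.0535).

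**Figure D2:**
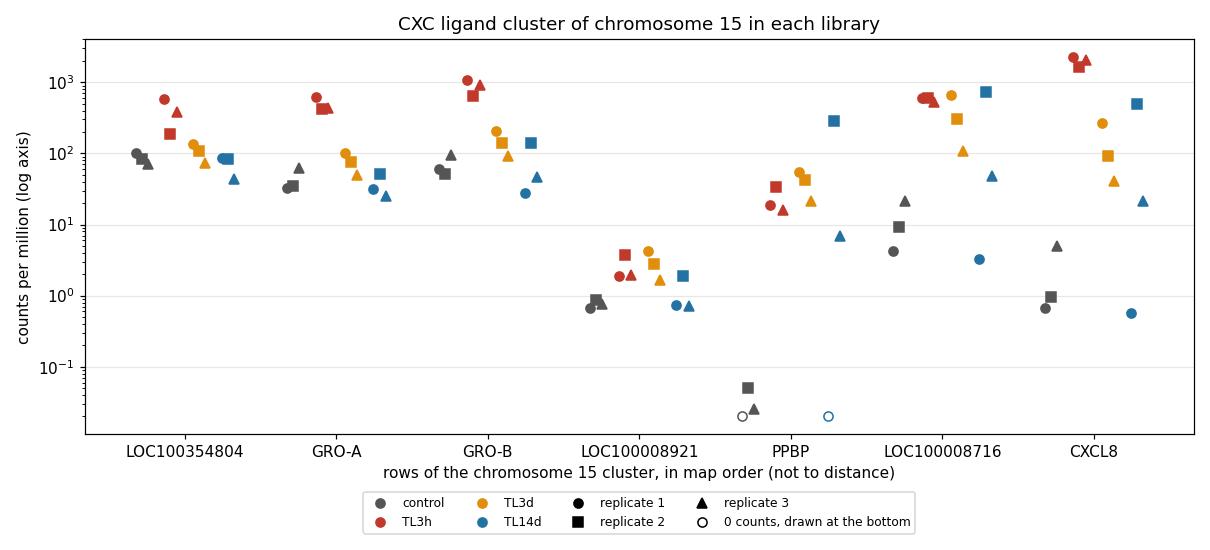
Level of the 7 CXC ligand rows of the chromosome 15 block in each library, in CPM on a log axis, with genes in map order and not spaced by distance, colour for the group and shape for the replicate. All TL3h points lie above the control points of the same row, and in GRO-A, GRO-B and LOC100354804 the TL3d points overlap the control points (for GRO-B in CPM but not in the deposited FPKM).

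CXCR1 and CXCR2, the receptors for CXCL8, are neighbours on chromosome 7 (CXCR2 at 159494015 to 159501196 on the plus strand, CXCR1 at 159538471 to 159542419 on the minus strand). CXCR1 binds chiefly CXCL8, while CXCR2 binds CXCL8, the GRO proteins and the processed PPBP product. CXCR1 was at 0.902, 1.48 and 22.8 CPM in control. At TL3h it was at 437, 624 and 227 CPM, above all controls, with a log2 fold change of 5.68 ± 1.42 (SE; adjusted p = 0.00852). CXCR2 was at 0.237, 0.200 and 6.42 CPM in control and at 177, 235 and 82.6 CPM at TL3h. Its groups did not overlap, and the log2 fold change was 6.17 ± 1.44 (adjusted p = 0.00602). Without control replicate 3 the changes of CXCR1 and CXCR2 were larger, at 8.44 (adjusted p = 0.00119) and 9.48 (adjusted p = 0.000641).

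At TL3d both receptors stood between the other groups. CXCR1 was at 113, 50.8 and 33.0 CPM, above control replicate 3 by a narrow margin and below every TL3h library. CXCR2 was at 44.1, 20.6 and 11.7 CPM, in the same order of groups. The log2 fold changes against control were 2.97 ± 1.25 (adjusted p = 0.117) and 3.48 ± 1.28 (adjusted p = 0.0819). Both missed the threshold with all libraries and passed it without control replicate 3, at 5.77 (adjusted p = 0.0233) and 6.82 (adjusted p = 0.0201).

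None of the 7 CXC genes passed between TL3h and TL3d, while 37.3% of all genes did. In 4 of them (CXCL8, CXCR1, CXCR2 and CXCL12) every TL3d library was below every TL3h library in CPM, beside 28.5% of all genes. In FPKM this held for 3 of them, not for CXCL12, and for 13.9% of all genes. CXCR1 differed by -2.71 and CXCR2 by -2.69 on the log2 scale (adjusted p = 0.109 and 0.107). Without control replicate 3 these differences were -2.67 and -2.66 with adjusted p-values of 0.0348 and 0.0251. At an unadjusted p under 0.05 there was 1 of the 7 in edgeR, beside 47.5% of all genes, and DESeq2 called 3 of the 7 and limma called 2.

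CXCR1 at TL14d was 0.403, 2.66 and 7.39 CPM, and CXCR2 was 0.168, 0.897 and 2.74 CPM. Both overlapped the control libraries and lay below every TL3d library. From TL3d to TL14d none of the 7 CXC genes passed, beside 2.24% of all genes. The groups did not overlap in CXCR1, CXCR2 and, in CPM but not in FPKM, CXCR4, with TL14d lower, as in 14.0% of all genes in CPM. The log2 differences were -4.24 for CXCR1 and -4.33 for CXCR2 (adjusted p = 0.109 and 0.106). They passed without control replicate 3 (adjusted p = 0.0467 and 0.0357), and DESeq2 and limma each called 2 genes, as many as had an unadjusted p under 0.05 in edgeR, where 22.6% of all genes did. Against control, the sign at TL14d turned with 1 library. It was -1.27 for CXCR1 and -0.85 for CXCR2 with all libraries, and 1.54 and 2.50 without control replicate 3.

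The receptors kept close proportions to each other. The ratio of CXCR1 to CXCR2 counts was 2.40 to 2.97 in the 9 operated libraries and 3.55 to 7.38 in the 3 control libraries, where CXCR2 rested on 10, 8 and 256 counts. The ratio of CXCL8 to CXCR1 counts varied far more. It ran from 0.221 to 9.14 in 11 libraries and was 186 in TL14d replicate 2, which held much CXCL8 and little of either receptor.

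CXCR1 has 2 transcripts in the table of transcripts. The one of 2101 bases took 89.3% to 100% of its counts in each library, and the one of 1232 bases the rest. The longer transcript rose at TL3h by 5.69 on the log2 scale (adjusted p = 0.0126), and the shorter one had a log2 fold change of 4.97 (adjusted p = 0.0587). Of the 10 transcripts of the 8 CXC genes, 8 were tested and 5 rose at TL3h, beside 28.3% of all transcripts called in either direction. At TL3d none passed, beside 5.13% of all transcripts, and at TL14d none passed, beside 0.00%, while DESeq2 called 5 and 2.

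**Figure D3:**
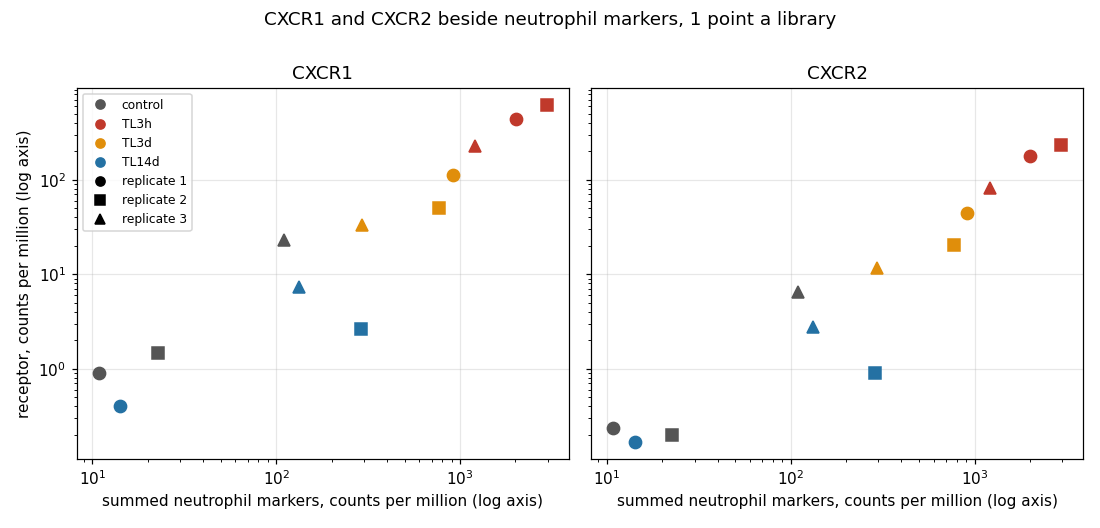
CXCR1 (left) and CXCR2 (right) against the summed neutrophil markers in each of the 12 libraries, both in CPM on log axes, with colour for the group and shape for the replicate. TL3h libraries lie at the upper right and TL14d replicate 2 has the lowest receptor level for its marker level.

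Neutrophil markers moved with these receptors. Of 18 listed markers 12 had a row and 11 were tested, of which 10 rose at TL3h, beside 23.2% of all genes, with a median log2 fold change of 5.57. FPR2, a formyl peptide receptor, rose by 7.74 (adjusted p = 0.0115), and CSF3R, the receptor for granulocyte colony-stimulating factor, rose by 6.12 (adjusted p = 0.00484). At TL3d 3 of the 11 were higher than control, beside 10.6% of all genes, and at TL14d none was. The count at TL3d was 0 to 6 when 1 library was left out, with 0 without control replicate 1 or 2 or TL3d replicate 1 or 2 and 6 without TL14d replicate 1. The summed level of the 12 markers was 10.9 to 110 CPM in control, 1207 to 2958 at TL3h, 293 to 914 at TL3d and 14.2 to 288 at TL14d. MPO, which is transcribed chiefly in the bone marrow, held 4 counts or fewer in every library. The part of neutrophil number in the receptor levels was not tested.

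For each 1000 CPM of summed neutrophil markers, the TL3h libraries held 188 to 218 CPM of CXCR1 and 68.4 to 88.2 CPM of CXCR2. The TL3d libraries held 65.8 to 124 and 26.8 to 48.2 CPM, below all TL3h libraries. The TL14d libraries held 9.25 to 55.6 and 3.11 to 20.6 CPM. The control libraries held 65.3 to 208 CPM of CXCR1, above all TL14d libraries, and 8.85 to 58.5 CPM of CXCR2, below all TL3h libraries, and they overlapped the other ranges. These proportions depend on which markers the list holds and are given without a test.

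Of 11 monocyte and macrophage markers tested, 2 were higher than control at TL3h, a share below the 23.2% of all genes, and 6 at TL3d, beside 10.6% of all genes, CD14 among them at both times (3.64 and 3.41 on the log2 scale) and MSR1, a scavenger receptor, at TL3d (5.26). With 1 library left out these counts were 1 to 6 at TL3h and 1 to 9 at TL3d, the latter lowest without control replicate 2 and highest without control replicate 3. Among 10 T cell markers, CD3D fell at TL3h by 1.38 and CD8B rose at TL3d by 4.57. Of 8 B cell markers, MS4A1 and CD22 rose at TL3h and at TL3d, and PAX5 fell at TL3h by 2.71, to 3 counts or fewer in each TL3h library. PECAM1 and CDH5 rose at TL3h among 9 endothelial markers. These shares of the T cell, B cell and endothelial markers at TL3h were near or below the 45.4% of all genes that passed. PECAM1 is also carried by leukocytes. None of 8 fibroblast markers passed at either time against control, and among 8 epithelial markers EPCAM rose at TL3h by 1.0 and PAX6 fell by 1.70, while at TL3d KRT5 was higher by 1.86 and KRT15 lower, at -3.03. These epithelial shares, 2 of 8 at each time, and those of the fibroblast markers stand beside 45.4% of all genes that passed at TL3h and 17.6% at TL3d. PAX6, KRT5 and KRT15 had fractional counts in 100% of libraries, and their values are uncertain. None of 3 skeletal muscle markers passed. Several of these marker calls were lost when 1 library was left out. The adjusted p rose to at most 0.228 for CD3D, 0.186 for CD22 at TL3h, 0.162 for PAX5, 0.121 for CDH5 and 0.125 for CD14 at TL3d. For MSR1, CD8B, MS4A1, KRT5 and KRT15 at TL3d it rose to between 0.0853 and 0.113, without control replicate 1 or 2 or TL3d replicate 1 or 2 among others.

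CXCR4, on chromosome 7 (73686039 to 73689851), is the receptor for CXCL12 and is found on neutrophils, monocytes and lymphocytes. It was at 1.83, 3.65 and 7.65 CPM in control. The TL3h libraries held 24.7, 28.6 and 16.9 CPM and the TL3d libraries 29.7, 32.9 and 22.7 CPM, all above control. CXCR4 was higher than control at TL3h by 2.42 ± 0.76 (SE) on the log2 scale (adjusted p = 0.0252) and at TL3d by 2.70 ± 0.77 (adjusted p = 0.0396). The 2 times overlapped in CPM but not in FPKM, where TL3d was above TL3h, and their difference was 0.28 ± 0.72 (adjusted p = 0.786).

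The CXCR4 calls were close to the threshold. At TL3h the adjusted p was 0.0837 without control replicate 1, 0.0825 without control replicate 2, 0.0558 without TL3h replicate 1 and 0.0668 without TL3h replicate 2. At TL3d it passed the threshold in 3 of the 12 fits that left out 1 library, namely without control replicate 3, TL14d replicate 1 or TL14d replicate 2, and reached 0.120 without control replicate 2. Without control replicate 3 the log2 fold changes were 3.04 at TL3h (adjusted p = 0.0188) and 3.36 at TL3d (adjusted p = 0.0378). At TL14d the level was 1.78, 22.2 and 9.73 CPM, overlapping control and, in CPM but not in FPKM, below every TL3d library. The difference from control was 1.36 ± 0.74 (adjusted p = 0.560), and it was 2.54 (adjusted p = 0.0278) without control replicate 3 and TL14d replicate 1 together and 0.40 (adjusted p = 0.988) without TL14d replicate 2.

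CXCL12, the ligand of CXCR4, is made by fibroblasts and other stromal cells and lies on unplaced sequence in OryCun2.0. It was at 14.2, 18.4 and 46.9 CPM in control and at 54.2, 80.6 and 54.1 CPM at TL3h. Every TL3h library was above every control library in CPM, but TL3h replicates 1 and 3 (11.7 and 11.9 FPKM) were below control replicate 3 (13.4 FPKM) in the deposited values. The log2 fold change of 1.25 ± 0.75 did not pass (adjusted p = 0.205). Without control replicate 3 it was 1.90 (adjusted p = 0.0918). At TL3d the libraries held 10.4, 13.6 and 51.3 CPM, a difference of -0.08 from control (adjusted p = 0.951), which was 0.61 without control replicate 3. The difference from TL3h was -1.33 ± 0.75 (adjusted p = 0.191) with all libraries and -2.39 (adjusted p = 0.0384) without TL3d replicate 3, the highest of its group. At TL14d CXCL12 was at 14.4, 2.26 and 9.67 CPM, which gave -1.59 ± 0.76 against control (adjusted p = 0.507).

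Fibroblast markers varied between the same libraries. Their summed level was 81080 to 97350 CPM at TL3h and 10040 to 58710 CPM in control, highest in control replicate 3. At TL3d it was 1129, 8517 and 45890 CPM, in the same order of libraries as CXCL12. At TL14d it was 21070, 8177 and 40730 CPM, highest in replicate 3, whereas CXCL12 was highest in replicate 1. Their part in the CXCL12 levels was not tested.

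The counts of CXCL12 were 5.03 to 7.74 times those of CXCR4 in the control libraries and 2.20 to 3.20 times at TL3h. At TL3d the ratio was 0.351, 0.413 and 2.26, all but the last below 1. At TL14d it was 8.07, 0.102 and 0.993, which spans the whole range of the other groups. ACKR3, the atypical receptor that removes CXCL12, rose at TL3h from 40.7 ± 17.2 to 199 ± 76.6 CPM (log2 fold change 2.29, adjusted p = 0.00259) and fell to TL3d by 2.37 (adjusted p = 0.00282), where it stood at 38.6 ± 6.47 CPM.

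CXCL16, on chromosome 19 (12271579 to 12278300), varied least of the 7 tested genes over the 12 libraries. It was at 71.5, 56.3 and 71.2 CPM in control, 134, 74.2 and 111 CPM at TL3h, and 112, 107 and 80.0 CPM at TL3d. All 6 of these operated libraries lay above control in CPM, the lowest of them by a small margin, while in the deposited values TL3h replicate 2 (41.95 FPKM) lay below every control library (46.3 to 58.4 FPKM). The log2 fold changes of 0.68 ± 0.28 at TL3h (adjusted p = 0.0682) and 0.59 ± 0.28 at TL3d (adjusted p = 0.153) did not pass, and at TL3h the adjusted p was 0.0384 without TL3h replicate 2 and 0.0331 without TL14d replicate 2. At TL14d the level was 63.5, 106 and 56.8 CPM and overlapped control. The row of CXCL16 overlaps that of ZMYND15 on the opposite strand and had fractional counts in 100% of libraries. Whether the counting used strand is not given in the sources used here. Its receptor CXCR6, found on T and natural killer cells, was at 4.996 ± 4.82 CPM in control and 4.44 ± 1.95 CPM at TL3h and did not pass in any comparison.

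CXCL13 was at or near the floor of detection. The control libraries held 1, 3 and 0 counts, the TL3h libraries 5, 3 and 4, the TL3d libraries 2, 0 and 5 and the TL14d libraries 3, 0 and 0. In the deposited FPKM the TL3h libraries (0.072 to 0.114) lay above the control libraries (0 to 0.0632), on these few counts. CXCL13 did not pass the filter, and no difference between groups was tested. Its receptor CXCR5 held 1 to 25 counts per library and did not pass the filter either.

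Levels of different genes were compared on the deposited FPKM values, which are divided by transcript length. In control, CXCL16 had the highest level of the 8 genes at 53.2 ± 6.21 FPKM, clear of CXCL12 at 7.78 ± 4.93. CXCL12, CXCR1, CXCR4, CXCR2 and CXCL8 followed in this order of means with overlapping neighbours, and PPBP and CXCL13 were last, both at 0.183 FPKM or less in every control library. The place of CXCR1 rested on control replicate 3 (10.09 FPKM). In control replicates 1 and 2 CXCR1 (0.425 and 0.700 FPKM) was below CXCR4 (1.065 and 2.14 FPKM), and CXCL8 was above CXCR2. At TL3h CXCL8 led at 963 ± 172 FPKM, with no library of another gene in its range. CXCR1 (142 ± 63.0), CXCR2 (102 ± 45.8), CXCL16 (61.7 ± 18.1) and PPBP (58.9 ± 23.5) each overlapped the next. CXCL12 (13.5 ± 2.98) and CXCR4 (9.62 ± 2.25) were lower and did not overlap.

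At TL3d PPBP had the highest mean, 143 ± 63.6 FPKM, and overlapped CXCL8 at 90.7 ± 81.2, which overlapped CXCL16 at 80.8 ± 15.6. CXCR1 (30.9 ± 20.1) came next and did not overlap CXCL16. CXCR2 (22.4 ± 14.9), CXCR4 (16.5 ± 3.38) and CXCL12 (7.45 ± 6.56) followed, each overlapping the gene before it. At TL14d the means of PPBP and CXCL8 rested on replicate 2, with 1045 and 337 FPKM, while replicate 1 had 0 and 0.386. CXCL16, at 61.4 ± 22.4 FPKM, was the highest of the 8 genes in TL14d replicates 1 and 3.

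**Figure D4:**
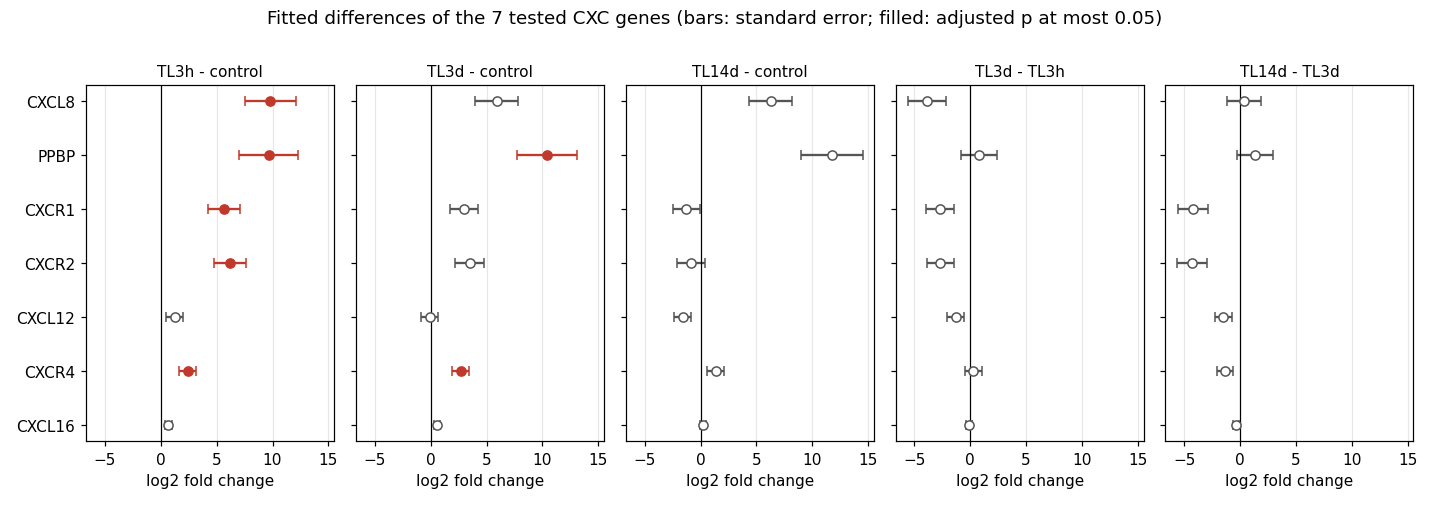
Log2 fold change of the 7 tested CXC genes in 5 comparisons, each first group minus the second, with bars for the standard error and filled points for an adjusted p of at most 0.05 in edgeR's quasi-likelihood test. Filled points stand for 5 genes at TL3h and for PPBP and CXCR4 at TL3d, and in the comparisons with control the widest bars are those of PPBP, whose control libraries held 3 counts in all.

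The other rows of the family, the atypical receptors included, numbered 16, of which 15 were tested. At TL3h 7 rose, namely the 5 block rows above, ACKR3 and ACKR2, and none fell, beside 23.2% of all genes that rose. ACKR2, which scavenges CC chemokines, was at 2.72 ± 1.91 CPM in control and 16.6 ± 10.2 CPM at TL3h (log2 fold change 2.61, adjusted p = 0.0151, up to 0.0660 without a single library) and fell to TL3d by 3.09 (adjusted p = 0.00937). At TL3d 2 of the 15 were higher than control, CXCL10 and LOC100008921, a share near the 10.6% of all genes.

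CXCL9, CXCL10 and CXCL11 are the interferon-induced ligands of CXCR3. CXCL10 was at 22.5, 29.4 and 4.14 CPM in control and 23.9, 23.9 and 16.4 CPM at TL3h, which overlapped. At TL3d it was at 76.4, 142 and 165 CPM, above all other libraries, with a log2 fold change of 2.77 ± 0.66 against control (adjusted p = 0.0232, up to 0.0711 without a single library) and of 2.58 against TL3h (adjusted p = 0.0119). The TL14d libraries held 5.25, 16.3 and 15.1 CPM, lower than TL3d by 3.39 on the log2 scale (adjusted p = 0.0387, up to 0.124 without a single library). This last call was lost in 10 of the 12 fits without 1 library. It was also lost with only the 2 groups compared (adjusted p = 0.0721). CXCL11 was higher at TL3d than at TL3h by 2.74 (adjusted p = 0.0268), and CXCR3, their receptor on activated T cells, by 1.88 (adjusted p = 0.0470). The calls of CXCL11 and CXCR3 were lost without some single libraries, at adjusted p-values up to 0.0871 and 0.198. That of CXCR3 was also lost under limma (adjusted p = 0.0619), with no filter (0.0531) and with only the 2 groups compared (0.0632). CXCL9 passed in no comparison and was at 3.76 ± 2.30 CPM in control and 1.55 ± 0.56 CPM at TL3d.

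CXCL17, a mucosal chemokine, had 482 ± 70.2 CPM in control, 362 ± 151 at TL3h, 360 ± 112 at TL3d and 393 ± 115 at TL14d, and passed in no comparison. ACKR1, which is carried by venules and red cell precursors and binds inflammatory chemokines, was at 46.4 ± 33.3 CPM in control and 13.3 ± 14.4 CPM at TL3d and did not pass either. ACKR4 was at 5.16 ± 1.90 CPM in control and 1.21 ± 0.80 CPM at TL3d (adjusted p = 0.0540).

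Components of CXC receptor signalling were read from a list of 24 genes, of which 22 were tested. At TL3h 13 rose and 1 fell, beside 23.2% of all genes that rose and 45.4% that passed, with a median log2 fold change of 1.14. RGS2, which limits G protein signalling, rose by 4.81 (adjusted p = 0.00712). ARRB1, one of the arrestins that end receptor signalling, fell by 0.55 (adjusted p = 0.0124). At TL3d 11 were higher than control and none was lower, beside 10.6% of all genes higher, with a median of 1.5. With 1 library left out this count was 2 to 14, with 2 without control replicate 1 or 2 or TL3d replicate 2.

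Of 10 tested genes whose products cut, bind or clear CXC ligands, 5 rose and 1 fell at TL3h, beside 45.4% of all genes that passed. TNFAIP6, which binds CXCL8 and hyaluronan, rose by 7.68 at TL3h (adjusted p = 0.00627). MMP9, which trims CXCL8, was higher than control by 7.83 at TL3d (adjusted p = 0.0448), a call lost in 10 of the 12 fits without 1 library, at up to 0.132. DPP4, the peptidase that inactivates CXCL12 and CXCL10, was at 349 ± 72.7 CPM in control and 177 ± 6.91 CPM at TL3h and fell by 0.98 on the log2 scale (adjusted p = 0.00457). At TL3d 2 of the 10 were higher and 1 was lower than control, beside 17.6% of all genes that passed, and 0 to 4 passed with 1 library left out.

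Of 20 tested genes of NF-kB signalling, AP-1 and the cytokines that induce CXCL8, 16 rose at TL3h and none fell, beside 23.2% of all genes that rose, with a median of 1.88. FOSL1, an AP-1 subunit, rose by 8.59 (adjusted p = 0.000675), and IL1B, whose product induces CXCL8 in many cells, was at 1.63 ± 2.07 CPM in control and 391 ± 89.4 CPM at TL3h. At TL3d 4 of the 20 were higher and 1 was lower than control, beside 17.6% of all genes that passed. With 1 library left out 0 to 7 passed. IL1A was higher than control by 9.41 at TL3d (adjusted p = 0.0291), and IL1R1, the receptor for the products of IL1A and IL1B, was lower, at -1.89 (adjusted p = 0.0238). Both calls were lost without control replicate 1 or 2 or TL3d replicate 1 or 2, at up to 0.0986 and 0.0868, and that of IL1A also without control replicate 3. IL1R1 had fractional counts in 100% of libraries, and its value is uncertain. From TL3h to TL3d 12 of the 20 fell and none rose, beside 37.3% of all genes that passed in either direction. At TL14d no gene of these 3 lists passed against control.

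The genes whose profiles over the 12 libraries lay nearest to each CXC gene were found by the root mean square difference of log2 CPM after each gene's mean was removed. All such profiles share the same libraries and large group differences. The nearest to CXCL8 was IL1B, at 0.801, followed by FPR2 at 1.06. In TL14d replicate 2 IL1B was at 296 CPM, while the other TL14d libraries held 0.235 and 12.7 CPM, the same order as for CXCL8. CSF3R was the nearest to both CXCR1 (0.432) and CXCR2 (0.404), followed by IDO1 for CXCR1 (0.695) and CCRL2 for CXCR2 (0.582).

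The nearest to PPBP were MMP9 at 1.05 and KRT17, a keratin of injured epithelium, at 1.07. Both had their highest level in TL14d replicate 2, as PPBP did, with 1992 CPM of MMP9 and 2317 CPM of KRT17. The nearest to CXCL12 were SERPING1, a complement inhibitor, at 0.432 and FGD5 at 0.434. Those to CXCR4 were NCKAP1L, a leukocyte actin regulator, at 0.280 and LPCAT2 at 0.337. Those to CXCL16 were MAPKAPK3 and TXNDC17, at 0.164 and 0.175, though CXCL16 itself departed from its own mean by 0.40 only.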

How the data were processed

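The authors sequenced stranded mRNA libraries and mapped the reads to OryCun2.0 (STAR 2.6.0c, per the submitters' processing notes). They deposited estimated counts per gene and per transcript, which need not be whole, and FPKM values divided by transcript length and depth. How reads with several placements were shared is not given in the sources used here. A few comparisons of levels between genes used the deposited FPKM. RefSeq names of another assembly were used for descriptions only, and no sequences were used.

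Estimated counts were rounded to whole numbers, filtered by filterByExpr (minimum count 10, minimum total 15), normalized by TMM and fitted with edgeR 4.0.16 (R 4.3.3) as 1 quasi-likelihood fit of all 12 libraries without covariates. The design had been written for counts and was kept for these estimated counts. Benjamini-Hochberg adjustment covered all genes tested, and a result passed at an adjusted p of at most 0.05. CPM uses TMM-adjusted library sizes. Standard errors (SE) were derived from the test, as the absolute log2 fold change divided by the square root of its F statistic. Libraries summed to between 27111276 and 38591374 counts, and a count of 0 allows up to 3 counts (0.0712 to 0.124 CPM, 95% confidence). Intervals and floors cover counting error only. The fits were tested on simulated data.

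The 9 genes and the gene lists were chosen with earlier results of these data known. Genes named outside them were the rest of the CXC and atypical receptor family, up to 2 rising and 2 falling genes per list, and the 2 nearest profiles per gene, computed as log2 (CPM + 0.5). One gene that this rule names is not reported here. Alternatives were DESeq2 1.42.0, limma 3.58.1 on log2 CPM with a pseudocount of 1, other scalings, no filter, only the groups compared, a replicate block and leaving out libraries. Replicate numbers are shared by the groups, but no label says that they mark an animal, so the numbers were not taken to pair samples. Deviations correlated over 0.1 in 8 of 18 same-numbered pairs of libraries (range -0.16 to 0.526) and 10 of 36 others (-0.572 to 0.428). Operated libraries came from separate animals, so pairs among them say nothing about animals, and these counts cannot decide the pairing.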

Additional observations from a re-analysis of the deposited data

Results flagged for a closer look

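Results in which TL3d differed from TL3h, or TL14d from TL3d, by the edgeR test of that difference itself are collected here. None of the 7 tested genes among the 9 CXC genes was of this kind. In the rest of the family, CXCL10 (2.58), CXCL11 (2.74) and CXCR3 (1.88) were higher at TL3d than at TL3h on the log2 scale. GRO-A (-2.72), GRO-B (-2.57), LOC100354804 (-1.86), ACKR3 (-2.37) and ACKR2 (-3.09) were lower. CXCL10 was also lower at TL14d than at TL3d (-3.39). The separate values of GRO-A, GRO-B and LOC100354804 are uncertain, since their counts were mostly fractions.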

How the results depend on the processing

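Depth limited CXCL13, CXCR5 and the control level of PPBP. The 5 CXC genes called at TL3h were 3 to 6 when 1 library was left out, with the low value without control replicate 1. At TL3d the count of 2 became 5 under DESeq2, under limma and without control replicate 3 and TL14d replicate 1 together (an alternative chosen after seeing the data), and 0 to 3 with 1 library left out. At TL14d the count of 0 became 2 under DESeq2, 3 without those 2 libraries and 0 to 2 with 1 library left out. Between TL3h and TL3d the count of 0 became 3 under DESeq2, 2 under limma, 3 with only the 2 groups compared, 3 without those 2 libraries and 0 to 2 with 1 left out. Between TL3d and TL14d it became 2 under DESeq2, 2 under limma and 0 to 2 with 1 left out. Of CXC transcripts, the 5 called at TL3h were 3 to 5 with 1 library left out, the 0 at TL3d were 5 under DESeq2 and 0 to 3 with 1 left out, and the 0 at TL14d were 2 and 0 to 1.

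Some differences turned in sign, none of them called. For TL14d against TL3d, CXCL8 (0.37) became -0.32 with the replicate block, -1.96 under limma and ran from -3.58 (without TL14d replicate 2) to 1.37 with 1 library left out, and PPBP (1.31) became -0.68, -1.51 and, with 1 left out, -3.49 (without TL14d replicate 2) to 1.90. Against control at TL14d, CXCR1 became 2.06 and CXCR2 3.00 without control replicate 3 and TL14d replicate 1, and with 1 left out ran from -2.43 to 1.54 and from -2.06 to 2.50, both highest without control replicate 3, while CXCL16 ran from -0.14 (without TL14d replicate 2) to 0.36. CXCL12 at TL3d became 0.61 without both libraries and ran from -1.14 (without TL3d replicate 3) to 0.61 (without control replicate 3) with 1 left out. CXCL16 between TL3h and TL3d became 0.39 with scaling by library size only, which put the median of all genes at 0.43, and ran from -0.26 to 0.14 with 1 left out. The cause was not tested. Whether groups overlapped was also read on the deposited FPKM, an alternative chosen after seeing the data, in which 1 of the 7 genes (CXCR4) lay higher at TL3d than in every TL3h library, against 0 in CPM.

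The replicate block changed no other call of the 7 genes and no count of them, and of 216 calls in the family and the gene lists it ended 7, CXCL10 between TL3d and TL14d among them. The other alternatives ended 0 (DESeq2) to 16 (library size only) of these 216 calls, leaving out 1 library ended 5 to 55, and no call turned in sign. Of 12 libraries 9 correlated best with one of their own number, a hint from the data and not the design. Over all genes, the 2608 called at TL3d were 4471 under DESeq2 and 359 to 3778 with 1 library left out. The 0 called at TL14d were 367 under DESeq2, 999 without both libraries and 0 to 716 with 1 left out, and the 332 between TL3d and TL14d were 1850 under DESeq2, 673 under limma, 15 with only those groups and 0 to 584 with 1 left out.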
